A study of Mus musculus with 17 samples.

Results

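A set of 6 genes of glutamate handling was followed across the 17 cochlear libraries of a noise study in mice: the 3 enzymes Gls2, Glul and Glud1 and the 3 vesicular glutamate transporters Slc17a6, Slc17a7 and Slc17a8. They were chosen by name with earlier results of these data known, and all 6 were found among the 35285 genes of the deposited table. The libraries came from 17 male wild-type C57BL/6J mice, about 8 weeks old as the study's text has it, killed on the second day after the exposure. The 3 control mice had intraperitoneal saline and no noise, the 7 NE mice (noise exposure) had noise of 8 to 16 kHz, termed broadband in the labels, at 100 dB for 2 h, and the 7 brimonidine mice had the same noise plus brimonidine, an α2-adrenergic agonist, at 1 mg/kg intraperitoneally on the day before, the day of and the day after the noise. No injection is stated for the NE mice, and no group had brimonidine without noise. Levels are given in FPKM, fragments scaled for transcript length and for the size of the library which allows levels to be set side by side between genes.

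Glutamate is the transmitter of the inner hair cell synapse. Inner hair cells load their vesicles with it through Slc17a8 (VGLUT3), the transporter whose loss is known to cause deafness, whereas the spiral ganglion neurons that carry the signal to the brainstem express Slc17a7 (VGLUT1) and Slc17a6 (VGLUT2). After release, glutamate is taken up by glia and turned into glutamine by glutamine synthetase (Glul), a glutaminase such as Gls2 turns glutamine back into glutamate, and glutamate dehydrogenase (Glud1) links glutamate to the citric acid cycle in mitochondria. Slc17a7 is also abundant in granule cells of the cerebellum and in many other central neurons, and Glul in astrocytes.

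The genes lie at the following places in mm10, all as protein-coding genes. Gls2 spans chr10:128194457-128210004 on the plus strand, Glul chr1:153899944-153909723 (plus) and Glud1 chr14:34310727-34345144 (plus). Slc17a6 spans chr7:51622006-51671119 (plus), Slc17a7 chr7:45163949-45176142 (plus) and Slc17a8 chr10:89574020-89621253 (minus). Slc17a6 and Slc17a7 thus share a chromosome, and the 3 transporters share only short identical stretches of transcript, at most 25 bases between Slc17a6 and Slc17a8, 21 between Slc17a6 and Slc17a7 and 20 between Slc17a7 and Slc17a8. No other gene shared a run of at least 50 bases with Slc17a6, Slc17a7 or Gls2. Slc17a8 shared such runs with 52 other genes (the longest 84 bases), so that part of its low count may be assigned uncertainly. Glul shared a run of 143 bases with the pseudogene Glns-ps1, at 0.0982 to 0.766 FPKM, and Glud1 one of 179 bases with Gm43444, at 0 to 0.377 FPKM, and one of 133 bases with the pseudogene Glud-ps, at 0.275 to 1.17 FPKM, all far under the members they resemble. The Glud1 position in the table differs from that in GENCODE M21.

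The sequences below show which member the study's own quantitative PCR for "VGLUT" and "GS" (glutamine synthetase) reads, and what lies just before the transporter genes. Matched to the GENCODE M21 transcripts, the VGLUT primers amplified 181 bases of Slc17a6 and matched neither Slc17a7 nor Slc17a8. The GS primers amplified 175 bases of Glul. The reverse GS primer also matched 2 other transcribed entries, Glns-ps1 and AC134576.3. The primers, 5′ to 3′, are in lower case throughout because no base of them is singled out.
VGLUT forward: ttggggctgcgatactgctc
VGLUT reverse: gccaacctactcctctccaagg
GS forward: gaacagacggccacccatttg
GS reverse: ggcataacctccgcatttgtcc
The 250 bases before the RefSeq start of each transporter gene (GRCm38.p6, written along the gene's strand) were searched on both strands for the GC box GGGCGG, the cyclic AMP response element TGACGTCA and the TATA box TATAAA, and capitals mark each GC box on either strand. A start further downstream that RefSeq lists for Slc17a6 and for Slc17a8 held none of these motifs.
Slc17a7, chr7:45163671-45163920, plus strand: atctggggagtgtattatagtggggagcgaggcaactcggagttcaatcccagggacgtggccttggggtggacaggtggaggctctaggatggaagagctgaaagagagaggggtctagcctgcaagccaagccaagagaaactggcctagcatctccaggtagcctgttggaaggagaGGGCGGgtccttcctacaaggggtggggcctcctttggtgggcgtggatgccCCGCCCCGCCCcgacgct
Slc17a6, chr7:51621580-51621829, plus strand: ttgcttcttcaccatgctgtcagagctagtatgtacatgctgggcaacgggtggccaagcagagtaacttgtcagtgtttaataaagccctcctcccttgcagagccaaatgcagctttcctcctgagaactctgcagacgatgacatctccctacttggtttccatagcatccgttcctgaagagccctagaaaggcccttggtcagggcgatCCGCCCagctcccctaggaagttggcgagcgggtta
Slc17a8, chr10:89621250-89621499, minus strand: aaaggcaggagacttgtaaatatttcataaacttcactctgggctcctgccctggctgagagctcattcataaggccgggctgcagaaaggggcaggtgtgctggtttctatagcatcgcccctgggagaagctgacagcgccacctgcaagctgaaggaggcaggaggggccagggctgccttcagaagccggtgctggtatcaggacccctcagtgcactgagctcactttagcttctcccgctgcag
Slc17a7 held 3 GC boxes, 2 of which overlap by a base, Slc17a6 held 1 and Slc17a8 none. None of these 3 windows held the cyclic AMP response element or the TATA box. Of 32851 promoters of the same length, 32.7% held a GC box, 1.55% the cyclic AMP response element and 12.4% the TATA box, so the matches describe these windows and no more.

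Some features of the libraries bear on all results. Total recovered fragments ran from 14457733 to 16080795 in control, 15769236 to 18288854 in NE and 16624436 to 18224926 in brimonidine libraries. The labels name cochlear cells of the type "interstitial cells". The defining genes of fibrocytes and the lateral wall summed to 588 to 1489 FPKM over all 17 libraries, hair cell genes to 18.02 to 43.6 FPKM, Schwann and satellite cell genes to 118 to 367 FPKM, and neutrophil genes to 9686 to 64544 FPKM, which is no picture of a single cell type. Erythroid genes summed to 1781 to 10862 FPKM. Macrophage genes summed to 272 to 320 FPKM in control, 312 to 367 in NE and 309 to 384 in brimonidine, and skeletal muscle genes to 304 to 829, 473 to 1094 and 377 to 965 FPKM. Without control 2 these control sums were 272 to 303 and 304 to 356 FPKM, below all exposed libraries. Summed over 14 genes of cerebellar and hindbrain neurons, the level was 259 to 695 FPKM in control, 21.1 to 32.9 FPKM in NE and 22.4 to 91.7 FPKM in brimonidine libraries. All 14 reached 1 FPKM in every control library, against 2 in every NE and 3 in every brimonidine library. The list was chosen with earlier results of these data known, so these counts describe it and no more. Barhl2, the lowest of them, was at 3.76 to 8.00 FPKM in control and 0 to 0.246 FPKM in NE, and Zic2, the highest, at 27.0 to 69.6 and 13.2 to 17.5 FPKM. Genes of central glia summed to 189 to 387 FPKM in control, 48.2 to 79.3 in NE and 40.1 to 84.6 in brimonidine. Genes of spiral ganglion neurons summed to 192 to 548, 79.0 to 176 and 94.3 to 133 FPKM. Control 2 was the highest library for cerebellar, central glial, spiral ganglion, Schwann, hair cell, fibrocyte and erythroid genes and the lowest for neutrophil genes. Brimonidine 5 was the highest exposed library for cerebellar and central glial genes. Values against control that moved most without control 2 are therefore given without it too.

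Glul and Glud1 were by far the most abundant of the 6 genes, and their levels differed little between the groups. In every one of the 17 libraries the order of levels began Glul, Glud1, Slc17a7. Below these, Gls2 and Slc17a6 were neighbours whose ranges overlapped in the control group, and Gls2 and Slc17a8 overlapped in the NE and brimonidine groups. In control libraries Gls2 stood above Slc17a8 in 3 of 3, while in NE libraries it did so in 1 of 7 and in brimonidine libraries in 1 of 7. Slc17a6 stood above Slc17a8 in 16 of 17 libraries, the exception being NE 6.

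**Figure D1:**
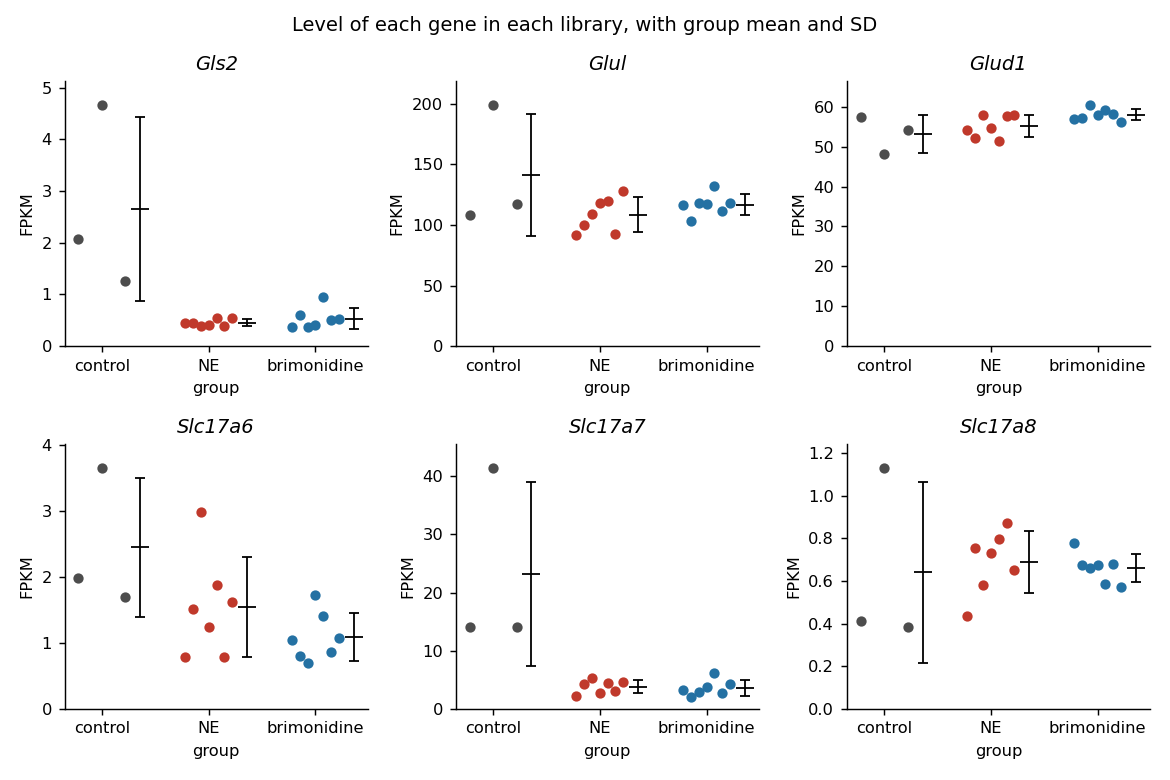
FPKM (vertical axes, from 0) of each of the 6 genes in each control, NE and brimonidine library (points, in replicate order), with the group mean and SD as a bar to the right of the points. All NE and brimonidine libraries lie below all control libraries for Gls2 and Slc17a7, and control 2 is the highest library for every gene but Glud1, for which it is the lowest.

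Slc17a7, the most abundant of the 3 vesicular glutamate transporters, was lower in every noise-exposed library than in every control. It was at 14.1, 41.5 and 14.0 FPKM in control 1 to 3. In NE 1 to 7 it was at 2.13, 4.27, 5.29, 2.75, 4.52, 3.05 and 4.67 FPKM, and in brimonidine 1 to 7 at 3.21, 1.95, 2.91, 3.67, 6.14, 2.72 and 4.18 FPKM. Control 2 was far above the other two controls, and the exposed groups overlapped each other over most of their range. These levels rest on 1097 to 3394 fragments per library in control and 189 to 589 in the exposed groups. The mean was 23.2 ± 15.8 FPKM (SD, n = 3) in control, 3.81 ± 1.17 (n = 7) in NE and 3.54 ± 1.35 (n = 7) in brimonidine. In bulk tissue, fewer cells that express a gene and less RNA per cell cannot be told apart.

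In NE against control the Slc17a7 log2 fold change of FPKM + 1 was −2.18 (SE 0.33, limma with Benjamini-Hochberg adjusted p = 0.00144). Mean FPKM was 6.08 times as high in control, a ratio that includes control 2. Without control 2 the means were 14.0 and 3.81 FPKM, and the log2 fold change was −1.68 (adjusted p = 0.00178, limma). In brimonidine against control the fold change was −2.28 (SE 0.34, limma, adjusted p = 0.00167), and −2.53 to −1.78 with any 1 library left out. Without both control 2 and brimonidine 5, the exposed library with the most Slc17a7, it was −1.89 (limma, adjusted p = 0.000158). The limma fit pools the spread of both groups, and the SD was 15.8 FPKM in control against 1.17 in NE and 1.35 in brimonidine. These SEs and adjusted p may therefore be too small. The exact two-sided permutation test gave p = 0.00833 in NE and in brimonidine against control with all libraries, the smallest that 7 against 3 can give. The summed cerebellar and hindbrain markers moved with Slc17a7 between control and exposed libraries, as given above, and so did the central glial and spiral ganglion sums, without overlap between control and exposed libraries. Their part in the difference was not tested.

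Gls2, the glutaminase of the set, had a low level that was lower still after noise. Its control libraries were at 2.07, 4.66 and 1.25 FPKM. NE 1 to 7 were at 0.443, 0.455, 0.395, 0.409, 0.542, 0.383 and 0.539 FPKM, and brimonidine 1 to 7 at 0.368, 0.593, 0.379, 0.403, 0.955, 0.503 and 0.519 FPKM. Every exposed library lay below the lowest control, with the top exposed value in brimonidine 5. The exposed levels rest on 21 to 59 fragments a library, against 70 to 246 in control.

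The Gls2 mean was 2.66 ± 1.78 FPKM (SD, n = 3) in control, 0.452 ± 0.0653 (n = 7) in NE and 0.531 ± 0.205 (n = 7) in brimonidine. Its log2 fold change was −1.23 in NE against control (SE 0.22, limma, adjusted p = 0.00457) and −1.16 in brimonidine against control (SE 0.24, adjusted p = 0.00907), with exact permutation p = 0.00833 for each. Since limma pools the spread of both groups and the controls spread far more, these SEs and adjusted p may be too small. Gls2 reached the minimum of 1 FPKM in at least 3 libraries only through the controls, so it entered the fit only where it was high. With no minimum and without control 2 the fold change was −0.86 in NE (limma, adjusted p = 0.00175) and −0.79 in brimonidine (adjusted p = 0.0181), both short of the study's minimum of 1 on this scale. Adding 1 to levels below 1 FPKM shrinks the fold: over controls 1 and 3 the mean was 1.66 FPKM against 0.452 in NE, and over all libraries the Gls2 fold change in NE was −2.13 with 0.1 added in place of 1 (limma, adjusted p = 0.00224). The cerebellar marker sum and Gls2 were both highest among exposed libraries in brimonidine 5 and both higher in control than in exposed libraries, and their relation was not tested.

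Slc17a6, the other transporter of spiral ganglion neurons, differed less. It was at 1.99, 3.66 and 1.70 FPKM in control 1 to 3. NE 1 to 7 were at 0.781, 1.52, 2.98, 1.25, 1.88, 0.787 and 1.63 FPKM, and brimonidine 1 to 7 at 1.05, 0.805, 0.701, 1.73, 1.42, 0.862 and 1.08 FPKM. NE overlapped control through NE 3 and NE 5, and brimonidine overlapped it through brimonidine 4. The mean was 2.45 ± 1.06 FPKM (SD, n = 3) in control, 1.55 ± 0.757 (n = 7) in NE and 1.09 ± 0.366 (n = 7) in brimonidine.

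The Slc17a6 log2 fold change was −0.45 in NE against control (SE 0.26, limma, adjusted p = 0.245) and −0.70 in brimonidine against control (SE 0.19, adjusted p = 0.0351). The latter passed the adjusted p but not the minimum fold, and the exact permutation test gave p = 0.0167, or 0.0600 adjusted over the 18 tests of 6 genes in 3 comparisons. Of all genes tested in that comparison, 12.3% were lower at the adjusted p alone. Without control 2 the Slc17a6 fold change was −0.21 in NE against control (limma, adjusted p = 0.730) and −0.46 in brimonidine against control (adjusted p = 0.141).

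Slc17a8, the transporter of inner hair cells, was the lowest of the set in control libraries and showed no difference that could be detected at its depth. Control 1 to 3 were at 0.410, 1.13 and 0.382 FPKM. NE libraries ran from 0.435 to 0.873 FPKM with a median of 0.730, and brimonidine libraries from 0.573 to 0.776 FPKM with a median of 0.673. Control 2 was above every exposed library and the other two controls were below every exposed library. The values rest on 28 to 81 fragments a library.

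Because only control 2 reached 1 FPKM, Slc17a8 did not enter the fit. The difference of mean log2(FPKM + 1) was 0.07 in NE against control (exact permutation p = 0.667) and 0.05 in brimonidine against control (exact permutation p = 0.708). A limma fit with no minimum put the 95% interval of the NE difference at −0.25 to 0.39. The NE difference was 0.27 without control 2, −0.03 without control 1 and −0.04 without control 3, and the brimonidine difference was 0.25, −0.05 and −0.06, so size and sign depended on which controls entered. The summed hair cell genes were at 18.5 to 43.6 FPKM in control, 18.02 to 24.9 in NE and 19.6 to 25.5 in brimonidine libraries.

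Glul, which makes glutamine from glutamate, was at 108, 199 and 117 FPKM in the controls. NE libraries ran from 92.0 to 128 FPKM with a median of 109, and brimonidine libraries from 103 to 132 FPKM with a median of 117. Control 2 alone lay above all exposed libraries, and the others overlapped them. The log2 fold change was −0.33 in NE against control (SE 0.19, limma, adjusted p = 0.235) and −0.22 in brimonidine against control (SE 0.17, adjusted p = 0.354), and without control 2 these were −0.06 and 0.05.

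Glud1, the mitochondrial glutamate dehydrogenase, was the steadiest of the 6. It was at 57.5, 48.2 and 54.2 FPKM in the controls. NE libraries ran from 51.4 to 58.0 FPKM with a median of 54.8, and brimonidine libraries from 56.2 to 60.4 FPKM with a median of 58.0. Here control 2 was the lowest library. The log2 fold change was 0.05 in NE against control (SE 0.08, limma, adjusted p = 0.683) and 0.12 in brimonidine against control (SE 0.07, adjusted p = 0.235), and without control 2 these were −0.02 and 0.06. By the exact permutation test the latter had p = 0.0333, or 0.0944 adjusted over 18 tests.

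By the study's thresholds (adjusted p below 0.05 and at least a doubling or halving) 2 of the 5 genes that could be tested in NE against control were called, Gls2 and Slc17a7, both lower. Over all genes tested in that comparison 5.49% were called lower and 0.27% higher. Groups did not overlap, with NE lower, for these same 2 genes, as for 15.0% of all genes tested. In brimonidine against control Gls2 and Slc17a7 were again called lower among 5 tested, where 5.56% of all genes tested were called lower and 0.169% higher, and for 14.3% of all genes brimonidine lay below control without overlap. Both comparisons use the same 3 control libraries and are not independent of each other. Leaving out any 1 control took Gls2 below the minimum of 3 libraries and left Slc17a7 as the called gene. With no minimum level Gls2 was still called in NE against control without control 1 (−1.30, limma, adjusted p = 0.0153) and without control 3 (−1.52, adjusted p = 0.00207), and likewise in brimonidine against control (−1.23, adjusted p = 0.0227, and −1.46, adjusted p = 0.00556), but not without control 2.

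**Figure D2:**
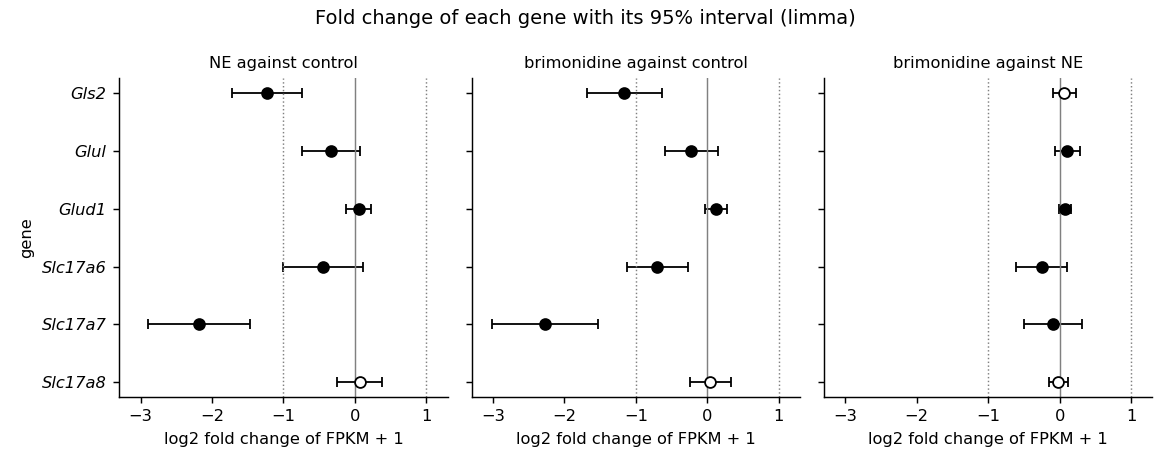
Log2 fold change of FPKM + 1 (horizontal axes) for each of the 6 genes in the 3 comparisons, with the 95% interval from limma. Filled points passed the minimum level, open points did not and take their interval from the fit with no minimum, and dotted lines mark the study's minimum fold. Slc17a7 lies at −2.18 in NE and −2.28 in brimonidine against control, and every interval in brimonidine against NE includes 0.

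The comparison of brimonidine with NE asks whether the drug changed these genes in noise-exposed cochleae. None of the 4 genes tested was called, and limma called 0.0% of all genes, with 5.77% at an unadjusted p below 0.05. In brimonidine against NE the Slc17a7 log2 fold change was −0.09 (95% interval −0.49 to 0.31, limma, adjusted p = 0.979). That of Slc17a6 was −0.25 (95% interval −0.61 to 0.11, adjusted p = 0.899), and that of Glul 0.11 (−0.06 to 0.28, adjusted p = 0.901). Intervals of this width leave room for a change by the drug in either direction.

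Glud1 was the one gene of the set for which the exact permutation test gave p below 0.05 in brimonidine against NE. Its mean was 58.0 ± 1.44 FPKM (SD, n = 7) in brimonidine and 55.2 ± 2.84 (n = 7) in NE, and 7 of 7 brimonidine libraries lay above the NE mean. The log2 fold change was 0.07 (95% interval −0.01 to 0.16, limma, adjusted p = 0.872), with exact permutation p = 0.0367, or 0.0944 adjusted over the 18 tests. Gls2 and Slc17a8 were below the minimum level and differed by 0.07 (exact permutation p = 0.428) and −0.02 (p = 0.717).

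The makeup of the transporter transcripts differed between control and noise-exposed libraries, with a smaller share of Slc17a7 in the latter. Of the summed FPKM of the 3 transporters, Slc17a7 made up 85.5%, 89.6% and 87.0% in control 1 to 3. Its share was 58.2% to 67.2% in the 7 NE libraries and 56.9% to 75.4% in the 7 brimonidine libraries. Control and exposed libraries did not overlap, and control 2, which stood apart in level, did not stand apart in this share. The summed FPKM was 16.1 to 46.3 in control, 3.35 to 8.85 in NE and 3.43 to 8.14 in brimonidine libraries.

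The mean Slc17a7 share was 87.4% ± 2.12 (SD, n = 3) in control, 63.1% ± 3.18 (n = 7) in NE and 65.7% ± 6.43 (n = 7) in brimonidine. Slc17a6 made up 10.2% ± 2.10 in control, 24.7% ± 5.09 in NE and 20.8% ± 4.13 in brimonidine. Slc17a8 made up 2.44% ± 0.0586, 12.2% ± 3.94 and 13.5% ± 4.28. For each of the 3 shares the exposed groups did not overlap control, with exact permutation p = 0.00833 in NE and in brimonidine against control, or 0.0125 adjusted over 9 tests. The shares sum to 100% in each library, so they are not 3 separate findings, and a share can rise while its gene's FPKM does not. Slc17a7 made up most of the sum, so its lower FPKM by itself moves all 3 shares. The share tests are therefore not independent of the Slc17a7 result above. The cerebellar and hindbrain marker sum split the same libraries, at 259 to 695 FPKM in control and 21.1 to 91.7 FPKM in exposed ones, and its part in the shares was not tested.

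Leaving out each library in turn, the Slc17a7 share differed by −25.2 to −23.1 percentage points in NE against control and by −23.3 to −20.2 points in brimonidine against control. Between brimonidine and NE the shares differed by 2.64 points for Slc17a7 (exact permutation p = 0.351), −3.94 for Slc17a6 (p = 0.135) and 1.29 for Slc17a8 (p = 0.557). Set as a ratio, Slc17a7 was at 8.88 ± 2.20 times the FPKM of Slc17a6 in control (SD, n = 3), 2.67 ± 0.658 times in NE (n = 7) and 3.30 ± 0.852 times in brimonidine (n = 7).

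**Figure D3:**
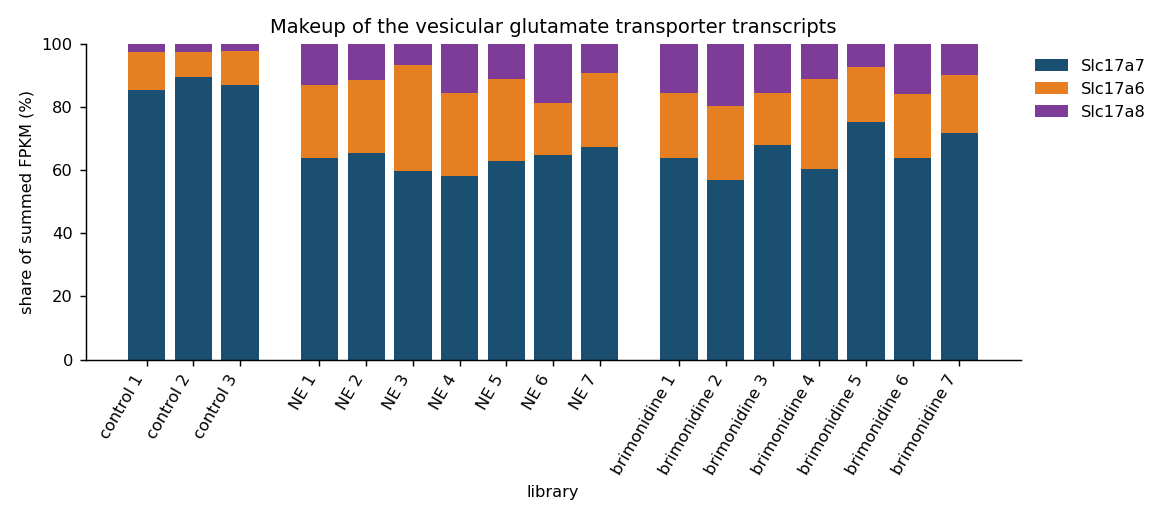
Share in percent (vertical axis) of Slc17a7, Slc17a6 and Slc17a8 in the summed FPKM of the 3 transporters, 1 bar per library. The Slc17a7 share is 85.5% to 89.6% in the 3 control libraries and 56.9% to 75.4% in the 14 noise-exposed libraries.

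Within the 14 exposed libraries, where cerebellar marker levels were below those of every control, Slc17a6 and Slc17a7 varied together and with the spiral ganglion markers. These 15 relations (5 pairs of measures, over the 14 libraries and within each exposed group, p adjusted over all 15) were chosen after the data had been seen, and controls were left out because they form a cluster of their own. Slc17a6 and Slc17a7 had Pearson's r = 0.748 (permutation p = 0.00178) and Spearman's rho = 0.767 (p = 0.00186) over the 14 libraries, with adjusted p = 0.00534 and 0.00697. Within NE, r was 0.874 (exact permutation p = 0.00873) and rho 0.929 (p = 0.00675), with adjusted p = 0.0218 and 0.0169. Within brimonidine, r was 0.670 (exact permutation p = 0.0990) and rho 0.786 (p = 0.0480), with adjusted p = 0.149 and 0.0800. Without NE 3 and NE 5, the libraries farthest from the median of Slc17a6, r over the rest was 0.717.

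The summed spiral ganglion markers and Slc17a7 had r = 0.863 (permutation p = 7.0e-05) and rho = 0.908 (p = 3.0e-05) over the 14 libraries, with adjusted p = 0.000992 and 0.000450. Within NE r was 0.903 (exact permutation p = 0.000992) and rho 0.893 (p = 0.0123), with adjusted p = 0.00372 and 0.0264. Within brimonidine r was 0.910 (exact permutation p = 0.000198) and rho 1 (p = 0.000397), with adjusted p = 0.000992 and 0.00298. Without NE 1 and NE 3 r was 0.855 over the other exposed libraries and 0.753 within NE. Without brimonidine 5 and 7 it was 0.903 within brimonidine. With Slc17a6 the same markers had r = 0.850 (permutation p = 0.000150) and rho = 0.820 (p = 0.000600), with adjusted p = 0.000992 and 0.00300. Within NE r was 0.865 (exact permutation p = 0.0161) and rho 0.929 (p = 0.00675), with adjusted p = 0.0344 and 0.0169. Within brimonidine r was 0.791 (exact permutation p = 0.0343) and rho 0.786 (p = 0.0480), which did not pass the adjustment (p = 0.0644 and 0.0800). Without NE 1 and NE 3 r over the 12 others was 0.777, and within NE 0.659. Without brimonidine 5 and 7 it was 0.921 within brimonidine. All values of a library share its dissection and its scaling, and the spiral ganglion list also holds general neuronal genes.

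The cerebellar and hindbrain markers had r = 0.434 (permutation p = 0.124) and rho = 0.209 (p = 0.474) with Slc17a7 over the 14 exposed libraries. Without brimonidine 5 and NE 1, r was 0.231. With Slc17a6 they had r = 0.0398 (permutation p = 0.914) and rho = 0.0418 (p = 0.891), and r = 0.110 without these libraries. Within NE, r was −0.300 for Slc17a7 (exact permutation p = 0.526, rho = −0.0357) and −0.189 for Slc17a6 (p = 0.676, rho = 0.0357), and without NE 1 and NE 5 r was 0.753 and 0.497. Within brimonidine, r was 0.777 for Slc17a7 (exact permutation p = 0.0554, rho = 0.607) and 0.406 for Slc17a6 (p = 0.373, rho = 0.429), and without brimonidine 5 and 7 r was −0.631 and −0.124. No relation with the cerebellar markers passed the adjustment, the lowest adjusted p being 0.0923.

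**Figure D4:**
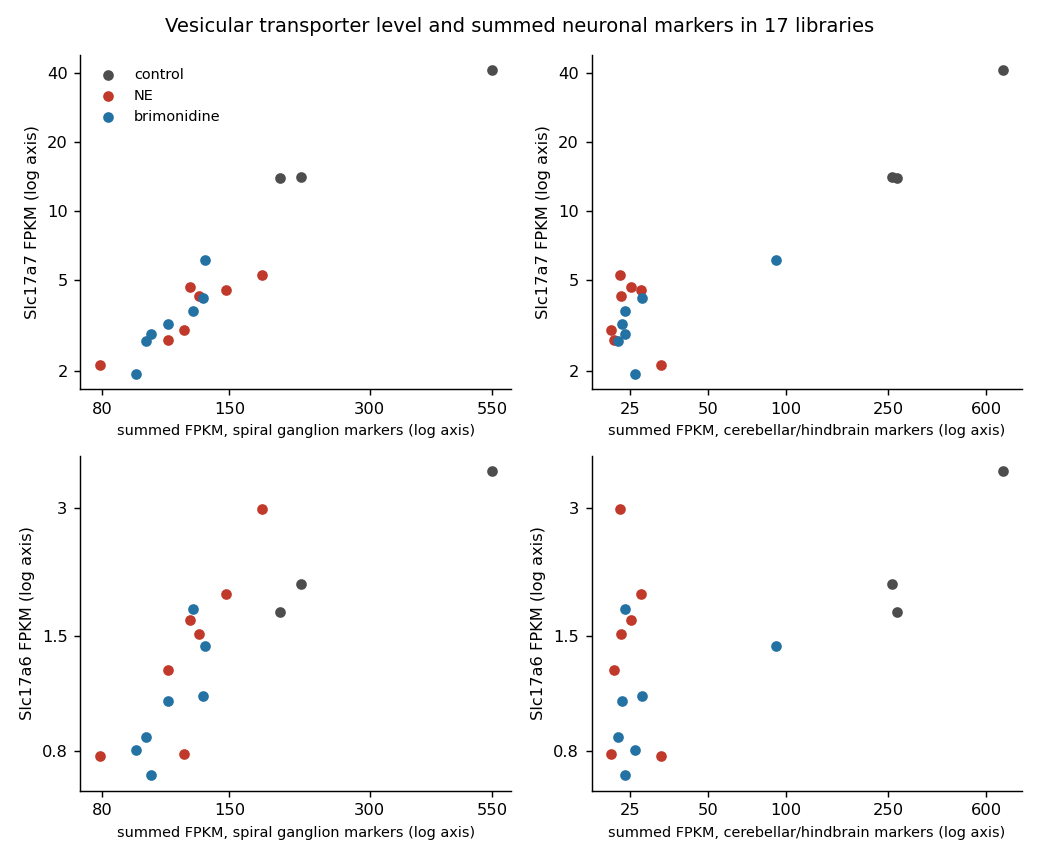
FPKM of Slc17a7 (top) and Slc17a6 (bottom) against the summed FPKM of spiral ganglion markers (left) and of cerebellar and hindbrain markers (right) in each of the 17 libraries, all on log axes. Control libraries lie apart from exposed ones on the right, at 259 to 695 FPKM against 21.1 to 91.7, and among exposed libraries both transporters rise with the spiral ganglion sum (r = 0.863 and 0.850).

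The genes whose levels ranked the 17 libraries most like each member, by Spearman's rho among the genes whose mean reached 1 FPKM, differed from member to member. Nearest to Slc17a7 were Eno2 (neuronal enolase, rho = 0.993), Sgpp2 (0.973) and Sh3gl2 (endophilin A1, of synaptic vesicle recycling, 0.968). Nearest to Slc17a6 were Syt2 (a calcium sensor of fast transmitter release, 0.941), Nefl (a neurofilament, also in the spiral ganglion list, 0.936) and Map1a (0.934). Over the 14 exposed libraries alone, rho with Slc17a7 was 0.987 for Eno2, and rho with Slc17a6 was 0.943 for Syt2. Mean Eno2 was 39.3 FPKM in control, 7.39 in NE and 6.95 in brimonidine, and mean Syt2 14.8, 3.45 and 2.84 FPKM.

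Nearest to Gls2 were Trim23 (rho = 0.973), Zdhhc17 (0.907) and the neuronal potassium channel gene Kcnd2 (0.904). Trim23 went from a mean of 6.57 FPKM in control to 4.73 in NE, and Kcnd2 from 8.46 to 0.207 FPKM, so that genes of very unequal change ranked the libraries alike. Nearest to Glul were Bcas3 (0.887), Ehd3 (0.841) and Enpep (0.824). Nearest to Glud1 were Ptpn6, a phosphatase of blood cells (0.860), Smarcd2 (0.855) and Sh3kbp1 (0.853). Slc17a8 had no such close neighbour, with Nus1 at 0.797 and Rcc1l and Gtf3c5 at 0.794. These are ranks over 17 libraries that include the shift between control and exposed groups.

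Among the other enzymes of glutamate a few genes were lower after noise, as Gls2 was. Of 29 enzymes, 5 were called lower and none higher in NE against control, where 5.49% of all genes tested were called lower and 0.27% higher. The median log2 fold change was −0.09 over the list and −0.04 over all genes tested. Besides Gls2 the genes called were Gad1 and Gad2, which make GABA from glutamate, and Abat and Aldh5a1, which break GABA down. Gad1 was at 13.2 ± 7.54 FPKM in control (SD, n = 3) and 0.386 ± 0.183 in NE (n = 7), a log2 fold change of −3.25. Gad2 was at 4.74 ± 2.94 and 0.0595 ± 0.0438 FPKM, a fold change of −2.33. Gad1, Gad2, Slc32a1 and Slc1a6 had, like Gls2, too few of the 14 exposed libraries at 1 FPKM to be tested in brimonidine against NE, so they entered the comparisons with control through the controls where they were high, and their calls are read with that limit. The enzymes with the highest means over the 17 libraries besides Glul and Glud1 were not called: Oat, ornithine aminotransferase, had a fold change of −0.14 (limma, adjusted p = 0.367) and Got1, aspartate aminotransferase, one of −0.55 (adjusted p = 0.0735).

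Of the 7 vesicular transmitter transporters tested, Slc32a1, which loads GABA and glycine, was called lower beside Slc17a7, where 5.49% of all genes tested were called lower. Slc32a1 was at 7.03 ± 4.32 FPKM in control and 0.709 ± 0.146 in NE, a log2 fold change of −2.11 (limma, adjusted p = 0.000348). Slc17a9, the vesicular nucleotide transporter, had the highest mean of them over the 17 libraries, though not in control, and had a fold change of 0.72 (adjusted p = 0.135), and the sialic acid transporter Slc17a5 one of −0.09 (adjusted p = 0.566). The median over the 7 was −0.45.

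Of 18 plasma membrane carriers of glutamate and glutamine, 3 were called lower and none higher, against the same 5.49% and 0.27% of all genes tested, with a median log2 fold change of −0.30. These were Slc1a6 (EAAT4, known from Purkinje cells), Slc1a3 (GLAST, of supporting cells and astrocytes) and Slc1a2 (GLT-1, of astrocytes, also in the central glia list). Slc1a3 was at 37.8 ± 20.8 FPKM in control and 5.58 ± 1.05 in NE, a log2 fold change of −2.45. Slc1a6 was at 17.8 ± 11.8 and 0.270 ± 0.124 FPKM, a fold change of −3.72. The carriers with the highest means over the 17 libraries, Slc38a2 and Slc1a5, had fold changes of −0.37 (limma, adjusted p = 0.0842) and 0.20 (adjusted p = 0.173).

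Of 18 subunits of the proton pump that energises vesicle filling, Atp6v0e2 and Atp6v1g2 were called lower, at log2 fold changes of −1.61 and −1.55, and none higher, with a median of −0.14. Beside these 2 of 18, 5.49% of all genes tested were called lower. Atp6v1g1 and Atp6ap1, with the highest means over the 17 libraries, had fold changes of 0.04 and −0.09. In brimonidine against control, which has the same controls, the same numbers of genes were called lower in the 4 lists (5, 2, 3 and 2) and none higher. Of all genes tested there, 5.56% were called lower and 0.169% higher. In brimonidine against NE none of the genes tested in any list was called, as for 0.0% of all genes. Without control 2, 1, 1, 2 and 2 genes of the 4 lists were called lower in NE against control, the enzyme being Abat and the transporter Slc17a7, and 2.2% of all genes tested were called lower there. In brimonidine against control 3, 2, 3 and 2 were called lower without it, the enzymes being Abat, Gad1 and Gad2, with 2.9% of all genes called lower. With no minimum level besides, the counts were 3, 2, 3 and 2 in both comparisons, with 1.68% and 1.71% of all genes called lower, and Gls2 and Aldh5a1 were not among the enzymes called. The fall of the cerebellar, central glial and spiral ganglion marker sums from control to exposed libraries, given above, ran alongside all of these calls, and its part in them was not tested.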

How the data were processed

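Per the labels, poly(A) RNA libraries were made with a stranded kit, and the processing notes name Trimmomatic, HISAT2, HTSeq, Cufflinks and mm10, with no versions. The authors deposited 1 table of FPKM for 35285 genes in 17 libraries, each from 1 mouse, and whether strand was used in counting is not given in the sources used here. FPKM times transcript length (GENCODE M21 merged exons, or a length solved from the values) gave whole fragments, within 0.02, for 99.997% of the 35029 genes above 0, and these set the depths in the report. Groups were taken from the labels. FPKM from fewer fragments is less precise, and depth limits the genes near or below 1 FPKM.

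From the deposited FPKM, log2(FPKM + 1) was computed here, so fold changes of low genes are understated, and fitted with limma 3.58.1 (R 4.3.3, trended eBayes) on the 2 groups compared. Genes needed at least 1 FPKM in at least 3 libraries, and p-values were Benjamini-Hochberg adjusted over all genes tested. Each fit pools the spread of its groups. The 3 controls spread more than the exposed libraries, so SEs and adjusted p against control may be too small. Calls used the study's thresholds, adjusted p below 0.05 and a log2 fold change of 1 or more in size. The study's own test models counts; on the deposited FPKM it was not run, and voom on the recovered fragments stands beside limma. Single genes and shares were tested by enumerating all regroupings (exact permutation, two-sided, scipy 1.17.1), for which 7 against 3 cannot go below 0.00833 nor 7 against 7 below 0.000583. Relations over 14 libraries used 100000 resamples. The fits were run on simulated data with the same spread in both groups for each gene, which does not cover the larger spread of the controls. The 6 genes and all lists were chosen with earlier results of these data known. Named genes were the 6 members, called genes of a list (at most 4), the 2 most abundant others of a list, the 3 genes ranking the libraries most like each member, and the highest and lowest marker of lists where shown. Slc18a3, on the transporter list, was not analysed here.

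Alternatives were pseudocount 0.1, no minimum level, rescaling by equal totals or median ratios, quantile normalization, array weights, voom on recovered fragments, no minimum fold, a replicate block and leaving out libraries; leaving out each control without a minimum level was added after seeing the data. Primers were read from the study's supplement and matched to GENCODE M21 transcripts, and promoters were read from RefSeq sequence (GRCm38.p6) by gene symbol.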

Additional observations from a re-analysis of the deposited data

Results flagged for a closer look

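Of 18 checks for a library far from its group (6 genes and 3 transporter shares in the NE and brimonidine groups, the control group being too small), 1 flagged a library: Gls2 in brimonidine 5 was at 0.955 FPKM, the highest of its group, while the other 6 brimonidine libraries were at 0.368 to 0.593 FPKM. Its gap to the nearest library was 0.616 of the group's range, which is above Dixon's 95% critical value for 7 libraries, and chance flags about 1 in 20 groups. The same library had the highest summed cerebellar and hindbrain markers of the group, 91.7 FPKM against 22.4 to 27.8 in the other 6. It was also the highest of its group for central glial (84.6 FPKM), spiral ganglion (133 FPKM) and skeletal muscle genes (965 FPKM). Whether any of these bears on its Gls2 level was not tested.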

How the results depend on the processing

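Among the 6 genes, 2 were called in NE against control and 2 in brimonidine against control. In NE against control 1 remained with array weights and 1 without control 2 and without a minimum level, and leaving out 1 library at a time gave 1 to 2. In brimonidine against control 1 was called with quantile normalization, with array weights, with control 2 and brimonidine 5 left out together, and without control 2 and without a minimum level, and 1 library less gave 1 to 2. Where 1 gene was called it was Slc17a7. With a replicate block none of the 6 was called in either comparison (0 and 0), although the folds were −1.25 and −1.23 for Gls2 (limma, adjusted p = 0.257 and 0.134) and −2.18 and −2.54 for Slc17a7 (0.205 and 0.0643), and over all genes 0 against 918 in NE and 236 against 913 in brimonidine against control. Replicate numbers do not pair the mice: correlations of same-numbered libraries' deviations ran from −0.241 to 0.0877, and 1 of 3, 0 of 7 and 0 of 3 pairs correlated best with their own number. Without control 2, 368 and 468 genes were called, without control 2 and a minimum level 578 and 573, with control 2 and brimonidine 5 left out 343 in brimonidine against control, and with no minimum fold 2247 and 2518. In brimonidine against NE array weights or no minimum fold gave 1 gene.

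Direction turned for genes that were not called. Glud1 in NE against control was −0.077 with quantile normalization and −0.017 without control 2, also with no minimum level (−0.017), and −0.017 to 0.108 with any 1 library left out. Slc17a7 in brimonidine against NE was 0.00157 without brimonidine 2 and −0.211 to 0.00157 over the libraries left out. Glul in brimonidine against control was 0.048 without control 2, with a minimum level or with none (0.048), 0.018 with control 2 and brimonidine 5 left out, and −0.390 to 0.048 over the libraries left out. Slc17a6 in brimonidine against control passed both thresholds with pseudocount 0.1 (−1.08, limma, adjusted p = 0.0369) and with voom on recovered fragments (−1.14, adjusted p = 0.0230). The share of Slc17a6 in brimonidine against NE differed by −5.27 to −2.43 points when 1 library was left out, reaching p = 0.0344 without NE 6 (−5.27) and 0.0385 without brimonidine 4 (−5.22) by exact permutation. The cause of these changes was not tested. Shares against control kept their direction and an exact permutation p of 0.0119 to 0.0278 without any 1 library. Depth limits Slc17a8, at 28 to 81 fragments in any library, and Gls2, at 21 to 59 in exposed ones.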
